A study of Mus musculus with 48 samples.

Results

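The comparison described here sets airspace macrophages taken from wild-type (WT) mice 21 days after bleomycin against those taken 7 days after it, over every gene expressed in the cells. It rests on 6 of the 24 mice of the study, 3 at day 21 and 3 at day 7, and on 12634 genes that passed a filter on low counts among 24411 in the deposited table. The p-values use the spread between mice of the same group, estimated jointly over all 24 mice of the study. They therefore do not rest on the spread of the 6 compared mice alone. All 6 mice were male and WT for Siglec-F, and all had received bleomycin, an agent that injures the lung and leads to scarring, into the trachea at 2.5 units/kg. No source used here gives strain or age. The macrophages came from bronchoalveolar lavage, the washing of the airspaces. The step that separated macrophages from other cells of the lavage is not described, so RNA of other cells may be included. The remaining mice serve below as context: WT mice sampled naive (saline, marked day 0) and at day 14, and mice lacking Siglec-F (knockout, KO) at days 21 and 7, with 3 mice a group. The question is how the late state of these cells, in the fibrotic phase, differs from the acute state.

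As background, the healthy airspace holds resident alveolar macrophages, long-lived cells that clear surfactant and carry Siglec-F, MARCO and high levels of the integrin CD11c. After injury, monocytes carrying Ly6C and the chemokine receptor CCR2 enter the airspace, differentiate into macrophages and take on alveolar macrophage genes over weeks. Monocyte-derived macrophages that make osteopontin (Spp1), matrix proteases and growth factors are known to gather in fibrotic lungs. In bulk RNA, fewer cells of a type and less RNA per cell cannot be told apart.

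The 6 libraries held 29963817 to 41980746 counts, and 2631 to 3883 of them were from Siglecf. The library of day 7 mouse 1 stood apart. Day 7 mouse 1 had 8.19% of its counts on Rn45s, the ribosomal RNA precursor, against 2.48 and 4.52% in the other day 7 mice and 2.85 to 4.01% in the day 21 mice. On the first 2 principal components of the WT bleomycin mice, which held 32.4 and 16.0% of the variance, the day 21 mice lay together. Their scores on the second component ran between 5.63 and 9.57, and day 7 mouse 1 scored 45.5, against -36.2 and -31.7 in the other day 7 mice. That library also held fewer reads of long transcripts. Genes with a mean of at least 5 CPM (library-size-scaled counts, with TMM factors) over the 6 mice were split into 4 classes of equal size by the length of their transcripts. In the class of longest transcripts, day 7 mouse 1 had a median log2 ratio of -0.21 to the mean of the other day 7 mice, and in the class of shortest transcripts a median of 0.18. Day 7 mouse 2 ran the other way, from -0.145 in the class of shortest to 0.16 in the class of longest transcripts. The same medians of the 3 day 21 mice stayed between -0.0108 and 0.00964 in every class. In the comparison of the days, the median log2 fold change was -0.05 in the class of shortest and 0.064 in the class of longest transcripts. The share of genes called lower at day 21 was 9.23% in the class of shortest transcripts, 9.1 and 6.1% in the next 2 classes and 4.82% in the class of longest, and the share called higher was 6.23, 5.96, 7.28 and 7.42% in the same order. Whether these shares come from the libraries was not tested, and counts that change without this mouse are given with them.

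**Figure D1:**
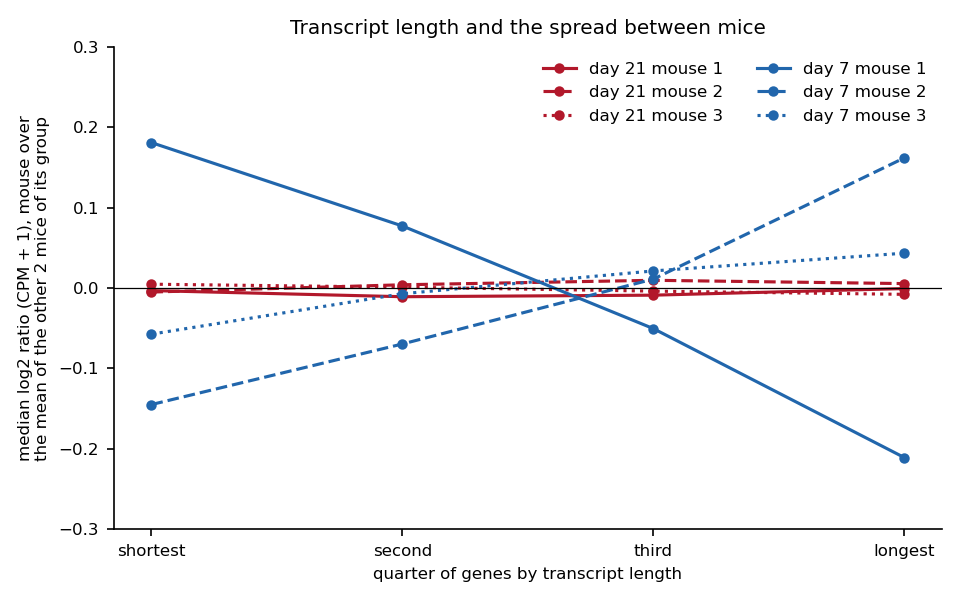
Each line is 1 of the 6 WT libraries, and each point the median over genes of 1 of 4 length classes, from shortest to longest transcripts, of the log2 ratio of that mouse to the mean of the other 2 mice of its group (CPM + 1). The day 21 libraries stay near 0, day 7 mouse 1 runs from 0.18 in the shortest class to -0.21 in the longest, and day 7 mouse 2 from -0.145 to 0.16.

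Genes lower at day 21 than at day 7 in airspace macrophages included 35 of 42 cell cycle genes, 21 of 24 replication genes, 10 of 18 genes of recruited monocytes, 17 of 37 type I interferon response genes and the monocyte attractants Ccl2 and Ccl7. Genes higher at day 21 included 13 of 24 cholesterol synthesis genes, 9 of 20 efflux genes, 11 of 37 lysosomal genes and single genes for the uptake of dying cells and the export of iron, such as Mfge8 and Slc40a1. In all, 1471 genes, or 11.6% of those tested, passed edgeR's quasi-likelihood test at a Benjamini-Hochberg adjusted p under 0.05 and are called changed. Of these, 694 were higher at day 21 (5.49% of genes tested) and 777 lower (6.15%). A change of at least 2-fold was seen in 158 of the higher and 259 of the lower genes. The 3 mice of each day did not overlap in 1452 of the 1471 called genes and in 33.1% of all genes tested. The median log2 fold change over all genes was 0.0027, so the bulk of genes was centred on no change. On mm10, in the GENCODE M21 annotation, Mfge8 lies at chr7:79133768-79149060, Spp1 at chr5:104435118-104441050, Ly6c2 at chr15:75108158-75111970, and Ccl2 at chr11:82035571-82037453. Leaving out day 21 mouse 1, 2 or 3 left 965, 876 or 896 called genes, and leaving out day 7 mouse 1, 2 or 3 left 1109, 1476 or 1019.

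**Figure D2:**
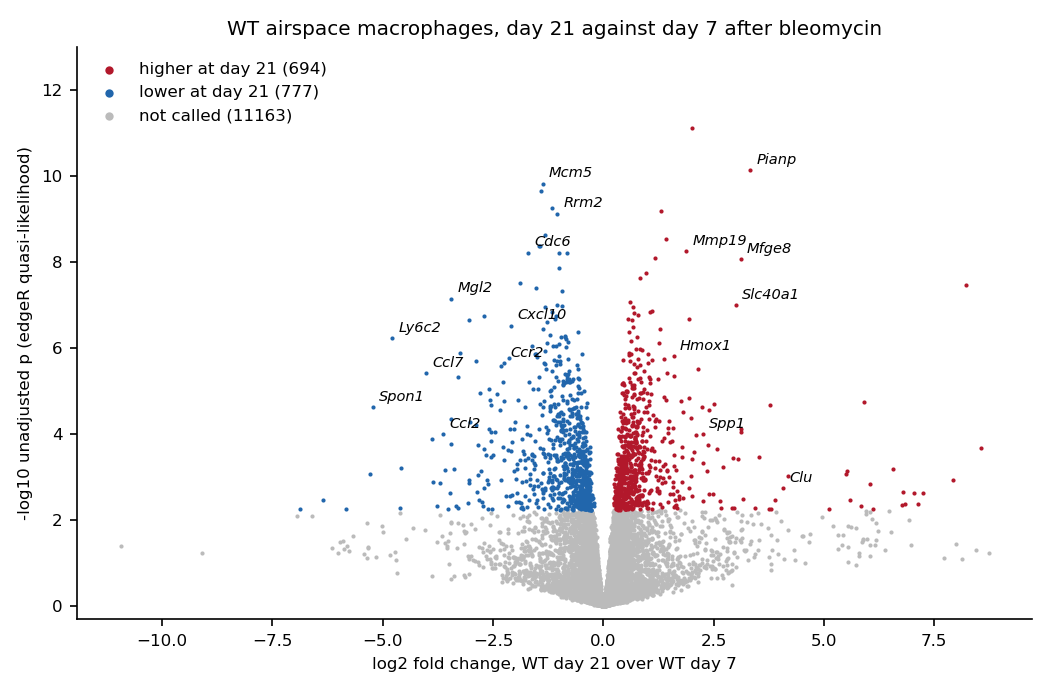
Each point is 1 of the 12634 genes tested, with its log2 fold change (WT day 21 over WT day 7) on the x axis and the -log10 of its unadjusted edgeR p on the y axis. Red points are the 694 genes called higher at day 21, blue points the 777 called lower, and 17 genes are labelled.

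Most genes of recruited monocytes and early macrophages were lower at day 21. Of 18 genes in this list, all tested, 10 were called lower and 1 higher, with a median log2 fold change of -1.25. Over all genes tested 6.15% were called lower and 5.49% higher. Ly6c2, a surface antigen of inflammatory monocytes and a member of a family of near-identical genes whose reads the counting may split, had 3.60, 2.49 and 2.38 CPM in the day 21 mice, against 70.8, 70.7 and 92.8 CPM in the day 7 mice. Ccr2, the receptor through which monocytes follow CCL2, had 85.6, 52.4 and 56.7 CPM at day 21, against 307, 324 and 302 CPM at day 7. The groups did not overlap for either gene, and the day 21 mice sat close together for Ly6c2. Their log2 fold changes were -4.78 ± 0.64 (SE; adjusted p = 0.000133, edgeR) and -2.26 ± 0.35 (adjusted p = 0.000298). Itgam, the CD11b integrin chain, was 4.32-fold lower at day 21, with 97.4, 62.9 and 83.6 CPM, against 311, 320.3 and 422 CPM at day 7. Ms4a4c was 8.19-fold lower. Cx3cr1, the fractalkine receptor, had 38.7, 27.9 and 25.2 CPM at day 21 and 90.5, 108 and 91.1 CPM at day 7, a log2 fold change of -1.66 ± 0.42 (adjusted p = 0.0132, edgeR). That call was lost without day 21 mouse 2 or 3 (adjusted p = 0.0617 and 0.067). The 1 member called higher was Chil3, a chitinase-like protein that resident alveolar macrophages also make at high level. Through Chil3 the summed level of the list was higher at day 21, at 11574 to 14289.8 CPM, against 6903 to 8548 CPM at day 7. Without day 21 mouse 2 or 3 the count of lower members was 6.

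**Figure D3:**
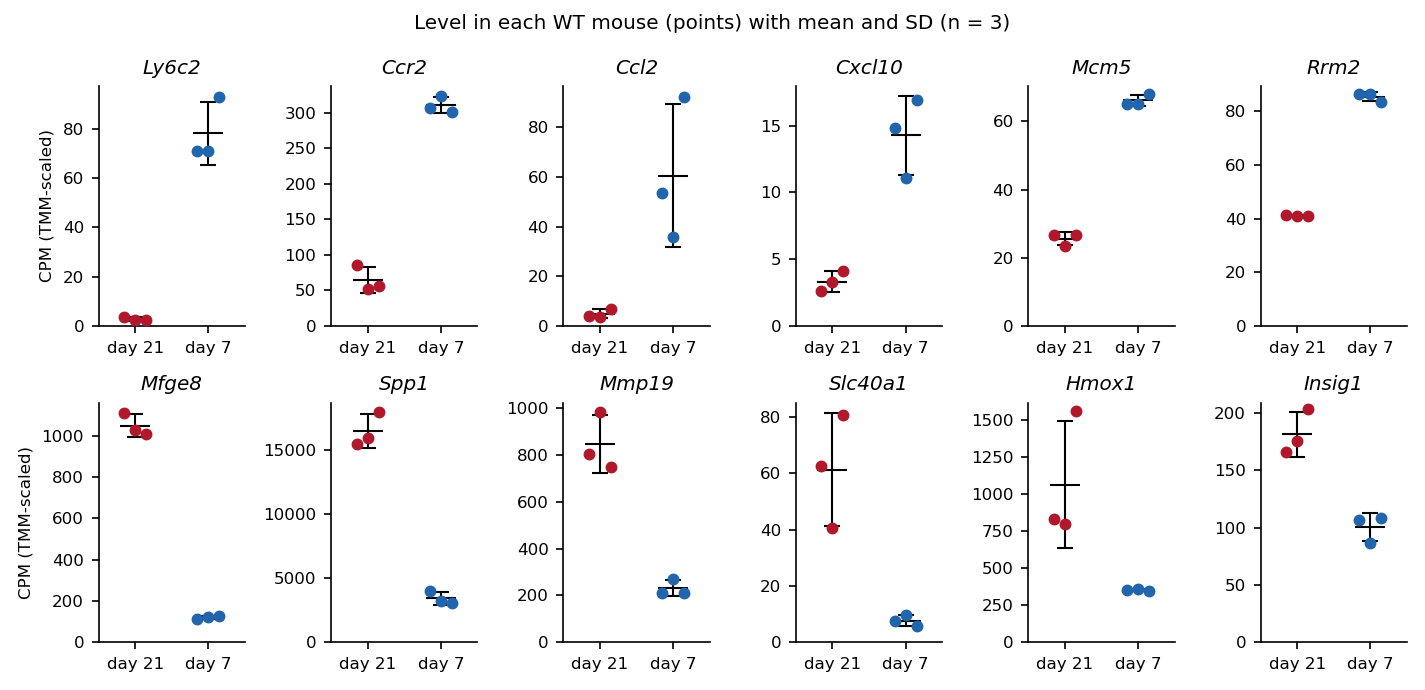
Levels in CPM on the y axis (each from 0) of 12 genes in each mouse (points), with the day 21 mice left of the day 7 mice and the mean and SD drawn in black (n = 3). The points of both days do not overlap in any panel, from Ly6c2 at 2.83 ± 0.675 CPM at day 21 and 78.1 ± 12.7 CPM at day 7 to Insig1 at 181 ± 19.5 and 100.5 ± 11.9 CPM. All 12 were picked from the called genes, so this follows from the choice. The mice did not overlap in 1452 of the 1471 called genes and in 33.1% of all genes tested.

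Genes that mark interstitial lung macrophages moved the same way in part. Of 15 tested members, 5 were called lower, against 6.15% of all genes tested, and none higher (median log2 fold change -0.62). A further 2 members, Cd163 and Lyve1, were at or near 0 in both groups. Stab1, a scavenger receptor, had 47.8, 27.3 and 47.8 CPM at day 21, against 201, 157 and 191 CPM at day 7, and fell by 2.16 ± 0.49 on the log2 scale (SE; adjusted p = 0.00588, edgeR). Tmem119, better known as a marker of microglia, had 1.06, 1.00 and 1.83 CPM at day 21 and 12.9, 8.80 and 16.8 CPM at day 7. C1qa, which encodes a chain of complement C1q, had 725, 669 and 595 CPM at day 21 and 1207, 826 and 803 CPM at day 7, without passing the test (log2 fold change -0.51 ± 0.49, adjusted p = 0.551, edgeR). Tmem176b was 2.50-fold lower, a call that was lost without any 1 of the day 21 mice or without day 7 mouse 1 (adjusted p between 0.0525 and 0.0962). The list held 3 lower members without day 21 mouse 1 or day 7 mouse 1, and 2 without day 21 mouse 2 or 3.

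Genes of resident alveolar macrophages were partly higher, while the gene that encodes Siglec-F was not. In this list 9 of 31 members were called higher and none lower, with a median log2 fold change of 0.41. Among all genes tested 5.49% were called higher and 6.15% lower. Fabp4, a fatty acid carrier under control of PPAR-gamma, had 113, 155 and 151 CPM at day 21 and 56.2, 50.8 and 55.4 CPM at day 7, a log2 fold change of 1.37 ± 0.24 (SE; adjusted p = 0.000944, edgeR). Itgax, which encodes CD11c, had 1623, 1430.3 and 1323 CPM at day 21 and 853, 884 and 1063 CPM at day 7. Atp6v0d2, a subunit of the lysosomal proton pump, was 1.63-fold higher, and Hvcn1, a proton channel, 1.38-fold higher. For all 4 genes every day 21 mouse was above every day 7 mouse. Chil3 was 2.09-fold higher, with 10017, 10559 and 12859 CPM at day 21, against 5248, 4686 and 6058 CPM at day 7, and lost its call without day 21 mouse 3 (adjusted p = 0.0525). Siglecf had 93.6, 122 and 90.9 CPM at day 21 and 94.7, 66.3 and 107 CPM at day 7, with overlapping mice and a log2 fold change of 0.19 ± 0.25 (adjusted p = 0.684). Pparg, the transcription factor that directs alveolar macrophage identity, had 125, 119 and 102 CPM at day 21 and 74.6, 82.2 and 95.4 CPM at day 7. Those mice did not overlap, but the test was not passed (adjusted p = 0.129, edgeR). Car4 (484.4 ± 64.7 CPM at day 21 and 554 ± 95.6 at day 7), Marco (536 ± 239 and 605 ± 155) and Fabp1 (9.78 ± 7.68 and 9.27 ± 1.21, SD, n = 3 each) did not pass it either, and the signs of the changes of Marco and Fabp1 turned when single mice were left out. Fabp1 lay far below its naive level of 211 ± 59.1 CPM on both days.

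A pair of chemokine genes that attract monocytes, Ccl2 and Ccl7, were among the 12 most reduced of the called genes that were ranked. The ranking covered genes with a standard symbol, a mean of at least 5 CPM on 1 of the days and no overlap of mice. Most chemokine genes did not pass the test. Ccl2, the main ligand of CCR2, had 4.00, 3.67 and 6.91 CPM at day 21, against 53.6, 35.9 and 92.2 CPM at day 7. Ccl7, a second CCR2 ligand that lies beside it on chromosome 11, had 1.98, 1.63 and 2.38 CPM at day 21, against 27.7, 18.1 and 51.5 CPM at day 7. Day 7 mouse 3 was highest for both, and no day 21 mouse came near the day 7 range. Log2 fold changes were -3.64 ± 0.76 and -4.02 ± 0.64 (SE; adjusted p = 0.00333 and 0.000428, edgeR). Ccl17, which attracts T cells through CCR4, was 4.18-fold lower, with 5.85, 4.99 and 4.46 CPM at day 21 and 24.7, 14.3 and 25.0 CPM at day 7. In the list of CC and CXC chemokines 5 of 20 tested members were lower and 2 higher, against 6.15 and 5.49% of all genes tested. The list's median was -0.55, and the 2 higher members, Ccl6 and Cxcl14, were picked out here after their values were seen. Ccl6, among the most abundant chemokine transcripts of alveolar macrophages, had 5151, 6060.3 and 5864 CPM at day 21 and 4674, 3161 and 4077 CPM at day 7. Most of the list's summed level was Ccl6, and that sum was higher at day 21, at 5669 to 6586 CPM, against 3719 to 5488 CPM at day 7. The count of higher members was between 0 and 2 when any 1 of the 6 mice was left out. In the inflammatory cytokine and inflammasome list 2 of 19 tested members were called, against 11.6% of all genes tested. Both were lower, namely Pycard, the inflammasome adaptor, and Gsdmd, the pore former of pyroptosis. Pycard lost its call without day 21 mouse 2 or day 7 mouse 1 (adjusted p = 0.0593 and 0.0679). Il1b had 41.1, 39.3 and 38.0 CPM at day 21 and 30.6, 23.3 and 46.4 CPM at day 7 (adjusted p = 0.813, edgeR).

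Interferon response genes had lower levels at day 21 throughout, though not all passed the test. In the list of the type I interferon response, 17 of 37 tested members were called lower, against 6.15% of all genes tested, and none higher. The log2 fold changes of all 37 were below 0, with a median of -0.98, against 0.0027 over all genes tested. Rsad2, which encodes the antiviral enzyme viperin, had 8.27, 11.3 and 13.7 CPM at day 21, against 35.0, 31.5 and 36.0 CPM at day 7. Ifit3, an antiviral effector, had 8.07, 11.7 and 13.9 CPM at day 21 and 32.1, 33.8 and 34.6 CPM at day 7. Isg15, a ubiquitin-like modifier, had 9.23, 7.48 and 9.05 CPM at day 21 and 22.5, 23.4 and 21.1 CPM at day 7. These levels were low on both days, and the day 7 mice lay well above the day 21 mice. Ddx58, the RNA sensor RIG-I, was expressed more strongly, with 54.8, 61.5 and 59.5 CPM at day 21 and 79.0, 90.0 and 92.1 CPM at day 7, and fell by 0.57 ± 0.11 on the log2 scale (adjusted p = 0.00235, edgeR). Trim30a, one of a cluster of closely similar genes, was 1.40-fold lower. Ifitm3, which blocks viral entry and was outside the list, was 6.98-fold lower, with 8.47, 6.55 and 7.50 CPM at day 21 and 59.0, 40.6 and 57.7 CPM at day 7. The number of lower members depended on the mice included. It was 4 without day 21 mouse 1 or 2, between 7 and 10 without any other mouse, and 26 when the compared groups were modelled on their own. Isg15 lost its call without any 1 of the 6 mice (adjusted p between 0.0514 and 0.101), and Ifit3 without day 21 mouse 1 (adjusted p = 0.0645).

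In the list of interferon gamma responses and class I presentation, 9 of 25 tested members were lower and 1 higher (median -0.49). Of all genes tested 6.15% were called lower and 5.49% higher. Without day 21 mouse 2 or 3, 5 members were lower. Cxcl10, a chemokine induced by interferons that attracts T cells, had 2.58, 3.26 and 4.15 CPM at day 21, against 14.8, 11.1 and 16.9 CPM at day 7, and fell by 2.10 ± 0.28 on the log2 scale (adjusted p = 8.48e-05, edgeR). Tap1, the peptide transporter of class I loading, had 82.7, 69.6 and 74.0 CPM at day 21 and 134, 138 and 122 CPM at day 7. The 1 higher member was Cd274, which encodes the checkpoint ligand PD-L1, with 151, 178 and 165 CPM at day 21 and 84.4, 102 and 98.5 CPM at day 7. The promoters of the type I interferon response list were searched because its members moved together, and that of Cxcl10 from the interferon gamma list is shown with them. The search was for the core of the interferon-stimulated response element, a pair of GAAA tetramers with 2 bases of any kind between them, on both strands, in RefSeq promoters (250 bases before to 50 after the start, GRCm38.p6). In the type I list the motif was found in 9 of 14 promoters of members called lower and in 7 of 12 promoters of members not called. It was in 3.99% of all 27025 promoters and in 3.84% of those of genes tested. Of the 37 tested members of the type I list 26 had a promoter in the table, and the share with a match was about the same in members called and not called. In the promoters of Cxcl10 (chr5:92348840-92349139, minus strand) and Ddx58 (chr4:40239776-40240075, minus strand), capitals mark the match, which in Ddx58 lies on the opposite strand.
Cxcl10: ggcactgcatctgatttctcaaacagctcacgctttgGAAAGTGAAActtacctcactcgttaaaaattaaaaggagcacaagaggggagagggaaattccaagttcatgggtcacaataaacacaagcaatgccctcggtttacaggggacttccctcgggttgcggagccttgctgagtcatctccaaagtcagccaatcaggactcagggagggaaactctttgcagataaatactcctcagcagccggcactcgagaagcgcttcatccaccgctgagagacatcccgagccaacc
Ddx58: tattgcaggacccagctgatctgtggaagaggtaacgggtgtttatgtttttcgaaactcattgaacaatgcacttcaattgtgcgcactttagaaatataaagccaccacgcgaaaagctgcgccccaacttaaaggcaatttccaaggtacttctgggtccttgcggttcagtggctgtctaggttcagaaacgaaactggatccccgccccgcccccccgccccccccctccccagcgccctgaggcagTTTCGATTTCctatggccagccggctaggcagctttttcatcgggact

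Genes of class II antigen presentation were called at about the share of all genes tested, which was 6.15% lower and 5.49% higher. Of 15 tested members 1 was called lower, Ifi30, and 1 higher, Ctss (median log2 fold change -0.53). With all mice kept, both calls were lost under RLE scaling (adjusted p = 0.0503 and 0.0553, edgeR) and without the filter on low counts (adjusted p = 0.0561 and 0.0511). Ctss lost its call without any 1 of the 6 mice (adjusted p between 0.0693 and 0.143), and Ifi30 without any 1 of 5 of them (adjusted p between 0.0718 and 0.171). The log2 fold changes of 14 of the 15 were below 0, and 6 were called lower with only the compared groups in the model. H2-Ab1, a class II chain, had 1197, 662 and 628 CPM at day 21 and 1871, 1470.5 and 1607 CPM at day 7. The mice did not overlap, but day 21 mouse 1 lay well above the other 2, and the test was not passed (log2 fold change -0.99 ± 0.47, adjusted p = 0.181, edgeR).

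Cell cycle and DNA replication genes held the highest shares of lower calls among the 37 lists. Of 42 cell cycle genes 35 were called lower and none higher, and all 42 had a negative log2 fold change (median -0.92). Of 24 further genes of replication origins and forks 21 were called lower, and again all 24 were negative (median -0.89). The share called lower over all genes tested was 6.15%. Mcm5, a subunit of the replicative helicase, had 26.7, 23.3 and 26.6 CPM at day 21, against 65.1, 65.1 and 68.1 CPM at day 7. Mcm2, another subunit, had 25.7, 21.8 and 23.7 CPM at day 21, against 58.6, 62.9 and 68.0 CPM at day 7. The mice of each day lay close together, and the groups far apart. Both genes were among the 4 with the smallest p of the comparison, with log2 fold changes of -1.37 ± 0.12 (SE; adjusted p = 6.37e-07, edgeR) and -1.41 ± 0.12 (adjusted p = 7.11e-07). Rrm2, which makes deoxynucleotides, had 41.5, 40.8 and 41.0 CPM at day 21 and 86.3, 86.4 and 83.5 CPM at day 7. Cdc6, which loads the helicase at origins, was 3.29-fold lower, and Uhrf1, which carries DNA methylation through replication, 2.72-fold lower. Top2a, the topoisomerase of mitotic chromosomes, had 55.8, 59.2 and 54.0 CPM at day 21 and 87.8, 131 and 119 CPM at day 7, 2.00-fold lower. Mki67, the proliferation marker, had 44.9, 49.2 and 56.4 CPM at day 21 and 17.8, 157 and 88.6 CPM at day 7. It did not pass the test (adjusted p = 0.411, edgeR), and the low value is that of day 7 mouse 1. The cause of that low value was not tested. Without that mouse 33 of the 42 cell cycle genes and 20 of the 24 replication genes were called lower. Cdkn1a, the cell cycle inhibitor p21, was also lower, with 98.1, 103 and 92.1 CPM at day 21 and 221, 174 and 281 CPM at day 7. Cdkn2a, which encodes the inhibitor p16 and ARF, was higher, with 7.01, 4.26 and 7.32 CPM at day 21, against 1.62, 1.09 and 0.553 CPM at day 7 (log2 fold change 2.52 ± 0.46, adjusted p = 0.0012).

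The day 7 level of replication genes was only a little above that of naive mice, and the day 21 level was below both. Mcm5 averaged 55.4 ± 3.65 CPM in naive WT mice, 66.1 ± 1.73 at day 7, 32.9 ± 3.20 at day 14 and 25.5 ± 1.89 at day 21 (SD, n = 3 each). In 19 of the 24 replication genes and 26 of the 42 cell cycle genes the naive mean lay between the day 7 and day 21 means, and in 5 of each list above both. Over all genes tested it lay between in 22.7% and above both in 37.8%. The promoters of cell cycle genes are known to carry CCAAT boxes, bound by NF-Y, and the cell cycle homology region, TTTGAA. The CCAAT box was found on either strand in 22 of 28 promoters of cell cycle members called lower and in 6 of 7 of those not called, against 41.1% of all promoters. TTTGAA was found in 13 of 28 and in 5 of 7, against 20.2% of all promoters and 14.3% of those of genes tested. In the replication list the CCAAT box was found in 9 of 18 promoters of members called lower, against 42.8% of those of genes tested. TTTGAA was found in 2 of these 18, against 14.3%, and the 1 promoter of members not called held both motifs. Mcm2 was counted in the cell cycle list. Its promoter (chr6:88898731-88899030, minus strand) holds both motifs, marked in capitals. The CCAAT box appears as ATTGG, its reverse complement, and the marked matches do not overlap.
Mcm2: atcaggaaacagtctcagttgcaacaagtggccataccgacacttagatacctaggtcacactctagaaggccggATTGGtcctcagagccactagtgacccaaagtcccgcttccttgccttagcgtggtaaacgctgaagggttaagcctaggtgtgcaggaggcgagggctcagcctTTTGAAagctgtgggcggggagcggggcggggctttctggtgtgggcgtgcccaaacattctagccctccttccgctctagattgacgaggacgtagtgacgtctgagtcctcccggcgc

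Genes known from fibrosis-associated macrophages split. Of 25 members 4 were called higher (16.0%, against 5.49% of all genes tested) and none lower, with a median log2 fold change of 0.27. Spp1, which encodes osteopontin, had 15474, 15919 and 17922 CPM at day 21, against 4008, 3217 and 3078 CPM at day 7. The lowest day 21 mouse lay far above the highest day 7 mouse, and the log2 fold change was 2.26 ± 0.47 (SE; adjusted p = 0.00337, edgeR). Ctsl, a lysosomal cysteine protease, had 1369, 1420.2 and 1310.4 CPM at day 21 and 570.4, 445.5 and 421 CPM at day 7. Lpl, lipoprotein lipase, had 2908, 2529.9 and 2833 CPM at day 21 and 991, 1919.9 and 1746 CPM at day 7, with day 7 mouse 1 the lowest. Igf1, insulin-like growth factor, had 247, 192 and 274 CPM at day 21 and 93.5, 89.7 and 69.5 CPM at day 7, and lost its call without day 21 mouse 3 or day 7 mouse 3 (adjusted p = 0.0574 and 0.0688). Other well-known members were already high at day 7 and did not pass the test. Gpnmb averaged 1829 ± 163 CPM at day 21 and 1520.0 ± 87.6 CPM at day 7 (adjusted p = 0.384, edgeR), and Trem2 289.8 ± 21.9 and 232 ± 36.1 CPM (adjusted p = 0.395; SD, n = 3 each). Fn1, fibronectin, had 7545, 5888 and 6247 CPM at day 21 and 3931, 7806 and 5066 CPM at day 7, with overlapping mice. Arg1, arginase, had 241, 208 and 316 CPM at day 21 and 360.4, 179 and 174 CPM at day 7, and the sign of its change turned when single mice were left out. Apoe had 2223, 2416 and 2183 CPM at day 21 and 302, 1817 and 1029.7 CPM at day 7: every day 21 mouse was higher, but the day 7 mice were spread over a wide range (adjusted p = 0.215, edgeR). Mouse 1 had the lowest Apoe of that group. With only the compared groups in the model 7 members were called higher.

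Among genes of matrix and matrix remodelling 4 of 26 tested members were higher and 3 lower (median 0.77), and 1 was lower without any 1 of the day 21 mice. For this list and the growth factors below, the shares over all genes tested were 5.49% higher and 6.15% lower. Mmp19, a matrix metalloprotease, had 801, 983 and 749 CPM at day 21 and 211, 270.0 and 212 CPM at day 7 (log2 fold change 1.87 ± 0.20, SE; adjusted p = 5.31e-06, edgeR). Mmp2, a gelatinase, was low throughout: it had 7.70, 5.68 and 8.22 CPM at day 21 and 1.29, 1.75 and 0.774 CPM at day 7, and lost its call with limma-voom (adjusted p = 0.0778) and without any 1 of 4 of the 6 mice (adjusted p between 0.0654 and 0.108). Tgfbi, a matrix protein induced by TGF-beta, went the other way, with 1616, 1718 and 1677 CPM at day 21 and 2909, 2559 and 2955 CPM at day 7. Mmp12 averaged 304 ± 44.2 CPM at day 21 and 189.5 ± 47.3 at day 7 and Mmp14 233 ± 23.7 and 303 ± 61.7 CPM (SD, n = 3 each), and neither passed the test. Of 19 tested growth factor genes 4 were called higher and none lower (median 0.37), Igf1 by 2.82-fold and the other 3 by less. Tgfb1, the central profibrotic cytokine, had 557, 557 and 557 CPM at day 21 and 459, 437 and 479.6 CPM at day 7, a 1.22-fold difference (adjusted p = 0.0141, edgeR). The mice of each day lay close together, and the call was lost without day 7 mouse 2 (adjusted p = 0.0517) and with only the compared groups in the model (adjusted p = 0.0769). Its receptor chain Tgfbr2 was 1.46-fold higher, and Pdgfc, a platelet-derived growth factor, 1.29-fold higher. Pdgfc lost its call with only the compared groups in the model (adjusted p = 0.0666) and without any 1 of 4 of the mice (adjusted p between 0.0589 and 0.12), and 2 members were called without day 7 mouse 3. Pdgfb had 20.4, 25.0 and 19.5 CPM at day 21 and 10.6, 19.8 and 15.7 CPM at day 7 (adjusted p = 0.454).

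**Figure D4:**
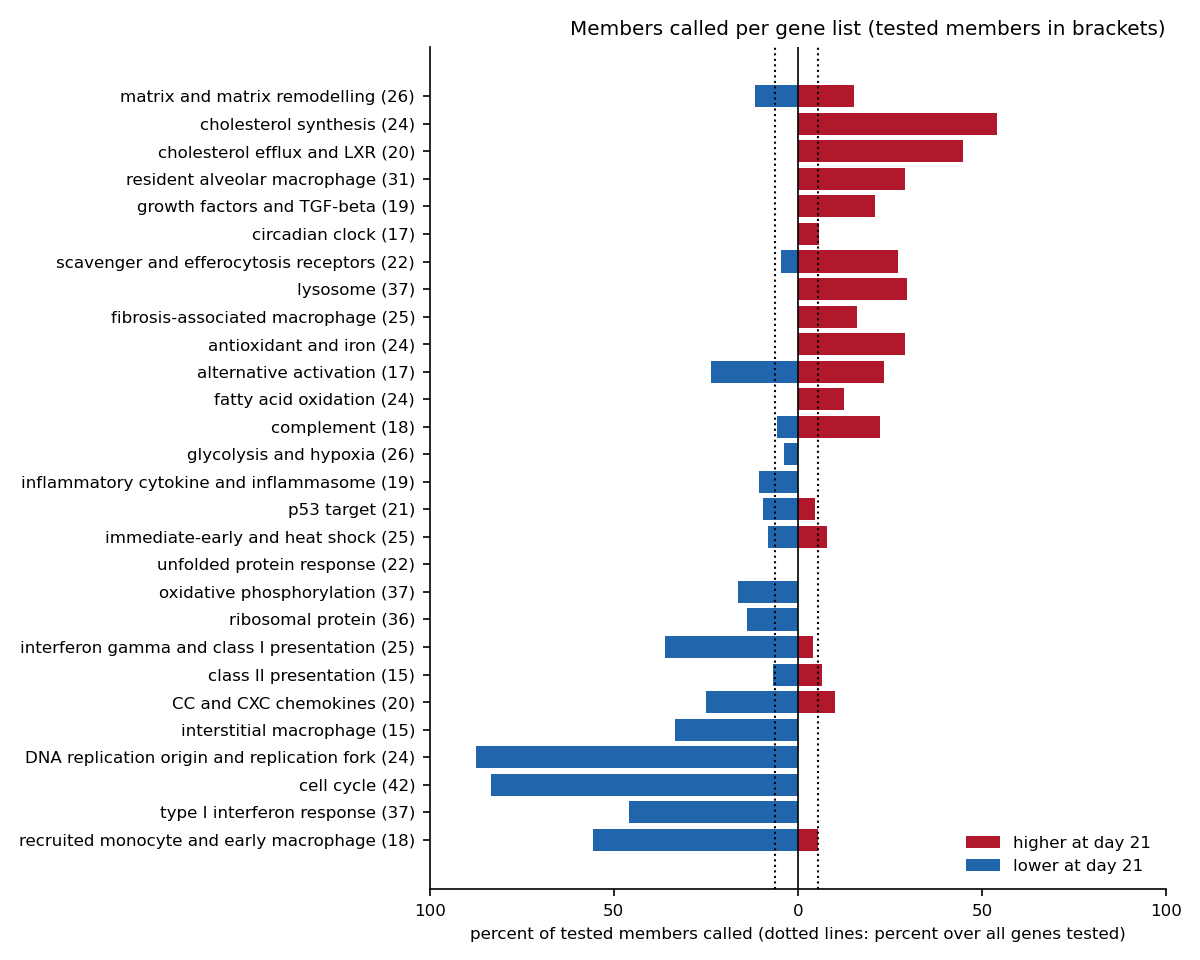
Bars give the percent of tested members of each gene list that were called higher (red, right) or lower (blue, left) at day 21 against day 7, with lists ordered by median log2 fold change. Dotted lines mark the shares over all genes tested, 5.49% higher and 6.15% lower. Cell cycle and replication genes reach furthest to the left and cholesterol synthesis furthest to the right.

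Of 22 tested scavenger and efferocytosis genes, which serve the uptake of dying cells and modified lipoproteins, 6 were called higher at day 21, 1, Stab1, lower, and 15 did not pass the test (median 0.31). Called higher over all genes tested were 5.49%, and called lower 6.15%. Mfge8 had the smallest p of the list. Mfge8 encodes the secreted bridge between phosphatidylserine on dying cells and macrophage integrins. It had 1111, 1030.3 and 1008 CPM at day 21, against 114, 124 and 127 CPM at day 7. The mice of each day were close together, and the log2 fold change was 3.11 ± 0.33 (SE; adjusted p = 6.32e-06, edgeR). Mertk, a receptor for bridged dying cells, had 252, 245 and 232 CPM at day 21 and 125, 174 and 177 CPM at day 7. Pros1, protein S, which bridges to MERTK, had 285, 278 and 229 CPM at day 21 and 142, 181 and 143 CPM at day 7. Olr1, a receptor for oxidised lipoprotein, was 1.67-fold higher. Mfge8 was expressed at a low level without bleomycin: it averaged 12.3 ± 2.40 CPM in naive WT mice, 122 ± 6.80 at day 7, 559.8 ± 82.3 at day 14 and 1049.7 ± 54.5 at day 21 (SD, n = 3 each). Mertk and Pros1 differed in this, with naive means of 248 ± 32.5 and 371 ± 35.7 CPM, at or above those of day 21.

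Many sterol genes were higher at day 21, on both the synthesis and the export side. Of 24 tested genes of cholesterol synthesis and its control 13 were called higher, against 5.49% of all genes tested. All 24 had a positive log2 fold change (median 0.57). Insig1, the sterol-sensitive anchor of SREBP, had 165, 175 and 203 CPM at day 21, against 106, 86.8 and 108 CPM at day 7. Hmgcs1, an early enzyme of the pathway, had 296, 308 and 362 CPM at day 21 and 168, 172 and 208 CPM at day 7. Dhcr7, one of the last enzymes, had 167, 162 and 175 CPM at day 21 and 126, 84.4 and 106 CPM at day 7. No mouse of day 7 reached the day 21 range in these 3 genes, and day 7 mouse 2 was lowest in Insig1 and Dhcr7. Log2 fold changes were 0.85 ± 0.14, 0.82 ± 0.16 and 0.67 ± 0.13 (SE; adjusted p = 0.000563, 0.00221 and 0.0024, edgeR). Sqle, squalene epoxidase, was 1.75-fold higher. Without day 21 mouse 3 or day 7 mouse 2 the count was 6, and without day 7 mouse 1 it was 14. In all 24 genes the naive mean lay below both later means, against 39.6% of all genes tested. Insig1 averaged 71.7 ± 14.2 CPM in naive mice. The promoter of Insig1 (chr5:28071162-28071461, plus strand) is shown because CCAAT boxes are known beside SREBP sites, and this list was added to the motif search after its values were seen. CCAAT was found in 9 of 9 promoters of members called higher and in 7 of 8 of those not called, against 41.1% of all promoters. Capitals mark it as ATTGG on the opposite strand.
Insig1: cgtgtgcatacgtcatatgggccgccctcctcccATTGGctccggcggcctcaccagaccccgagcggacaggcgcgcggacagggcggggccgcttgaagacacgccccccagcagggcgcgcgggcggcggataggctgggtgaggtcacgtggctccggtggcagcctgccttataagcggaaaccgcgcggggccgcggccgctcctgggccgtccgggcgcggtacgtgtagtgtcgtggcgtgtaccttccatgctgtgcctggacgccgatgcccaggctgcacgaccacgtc

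On the export side 9 of 20 genes of cholesterol efflux and LXR, the oxysterol receptor, were higher and none lower (median 0.41). The share called higher over all genes tested was 5.49%. Pltp, phospholipid transfer protein, had 337, 364 and 368 CPM at day 21 and 179.9, 184 and 167 CPM at day 7, and Scd1, a fatty acid desaturase and LXR target, 122, 90.7 and 146 CPM at day 21 and 38.7, 25.2 and 42.1 CPM at day 7. Apoc1, an apolipoprotein, had 8.13, 6.93 and 14.5 CPM at day 21 and 1.13, 1.15 and 2.24 CPM at day 7, a 6.54-fold difference that lost its call without day 21 mouse 3 (adjusted p = 0.0512) and with limma-voom (adjusted p = 0.0679). Lpcat3, which remodels phospholipids, was 1.32-fold higher. The list held 5 called members without day 21 mouse 2 and 4 without day 21 mouse 3. Of 24 fatty acid oxidation genes 3 were higher, Pex11a and Crat among them, and none was lower (median 0.11). So small a count is not read as a change of the list, given that 5.49% of all genes tested were called higher. The count was 1 without day 21 mouse 1 or 3, since Pex11a and Crat lost their calls (adjusted p between 0.0577 and 0.13). With all mice kept, Pex11a also lost its call with limma-voom (adjusted p = 0.093) and Crat with only the compared groups in the model (adjusted p = 0.0938).

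Some lysosomal genes were modestly higher. In this list 11 of 37 members were higher and none lower (median 0.27), against 5.49 and 6.15% of all genes tested. Ctsd, cathepsin D, was among the most abundant transcripts of the cells, with 23245, 24027 and 25948 CPM at day 21 and 13396, 14105 and 15222 CPM at day 7 (log2 fold change 0.78 ± 0.15, adjusted p = 0.00152, edgeR). Mcoln1, the lysosomal calcium channel, was 1.36-fold higher (adjusted p = 0.000276). The count was 6, 7 or 5 without day 21 mouse 1, 2 or 3, and 6 without day 7 mouse 1. Of 24 iron and antioxidant genes 7 were higher and none lower (median 0.24), with large steps in Slc40a1 and Hmox1. Slc40a1 encodes ferroportin, the iron exporter, and had 62.8, 40.7 and 80.6 CPM at day 21, against 7.66, 9.57 and 5.72 CPM at day 7. Hmox1, which frees iron from haem, had 833, 801 and 1560.0 CPM at day 21, against 353, 359.9 and 347 CPM at day 7. Every day 21 mouse lay above every day 7 mouse for both, and Hmox1 was highest by far in day 21 mouse 3. Their log2 fold changes were 3.00 ± 0.38 (SE; adjusted p = 4.48e-05, edgeR) and 1.59 ± 0.24 (adjusted p = 0.000245). Gsr, glutathione reductase, was 1.62-fold higher. Without day 21 mouse 3 or day 7 mouse 3 the count of higher members was 3. Erythroid transcripts were measured beside these. The sum of 9 erythroid genes, 5 of them tested, ran from 101 to 352 CPM at day 21 and from 13.5 to 124 CPM at day 7. Hba-a1 was highest in day 21 mouse 3, at 106, 80.6 and 308 CPM in the 3 day 21 mice and 11.2, 111 and 12.0 CPM in the day 7 mice. None of the erythroid genes was called, and the marker Car1 was at 0. Their part in the iron genes was not tested.

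A few genes of oxidative phosphorylation and ribosomal proteins were called slightly lower at day 21, with counts that moved widely with the mice included. In oxidative phosphorylation 6 of 37 genes were called lower, none higher, and all 37 had a negative sign (median -0.25). Over all genes tested 6.15% were called lower. Cycs, cytochrome c, had 82.9, 83.7 and 87.2 CPM at day 21 and 149, 111 and 126 CPM at day 7, and Atp5b, an ATP synthase subunit, 671, 609.7 and 668 CPM at day 21 and 991, 780.1 and 898 CPM at day 7. Rps6, a ribosomal protein, had 516, 499 and 473.2 CPM at day 21 and 794, 622 and 658 CPM at day 7, and was 1 of 5 called lower among 36 ribosomal protein genes (median -0.37). In each of these genes day 7 mouse 1 was the highest of its group. Most of both lists are short transcripts: 30 of the 37 and 31 of the 36 genes fall in the class of shortest transcripts, with median lengths of 763 and 775 bases, against 2144 over the genes tested. Without day 7 mouse 1 the counts were 3 and 0, with medians of -0.09 and -0.19, and without day 7 mouse 2 they were 14 and 16. Without day 21 mouse 1, 2 or 3 they were 2, 2 and 3 for oxidative phosphorylation and 2, 0 and 0 for ribosomal proteins, and without day 7 mouse 3 they were 5 and 3. Rps6 lost its call without day 21 mouse 2 or 3 or day 7 mouse 1 (adjusted p between 0.0545 and 0.0911).

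Further lists were mixed or held calls near or below the share over all genes tested. Alternative activation was mixed, with 4 of 17 members higher and 4 lower (median 0.23), against 5.49 and 6.15% of all genes tested. Between 1 and 3 members were higher without any 1 mouse, and 2 were lower without day 21 mouse 3. Mgl2, a galactose-binding lectin, had 3.54, 1.97 and 3.32 CPM at day 21, against 41.7, 20.9 and 34.1 CPM at day 7, while Tgm2, transglutaminase, had 996, 1319.7 and 1288 CPM at day 21 and 606, 540.5 and 745 CPM at day 7. Complement genes had 4 higher and 1 lower member of 18 (median 0.04), among them the C5a receptors C5ar1 (1.74-fold higher) and C5ar2 (1.48-fold higher). C5ar1 lost its call without any 1 of 4 mice (adjusted p between 0.0629 and 0.149), and 2 complement genes were higher without day 21 mouse 2 or 3 or day 7 mouse 3. For the lists that follow, the share called over all genes tested was 11.6%. Of 26 glycolysis and hypoxia genes Pfkp, a phosphofructokinase, was called, lower at day 21 (136, 128 and 126 CPM) than at day 7 (167, 195 and 215 CPM). Of 22 genes of the unfolded protein response 0 were called by edgeR, by DESeq2 or by limma-voom, and 3 had an unadjusted p under 0.05. Among immediate-early and heat shock genes, which can mark handling of cells, 2 of 25 were higher and 2 lower. Fos had 112, 114 and 97.6 CPM at day 21 and 40.3, 69.7 and 52.7 CPM at day 7. Egr2 was 1.63-fold higher, and Hsp90aa1 1.49-fold lower. Egr3 had 0.132, 0.0693 and 0.0691 CPM at day 21 and 1.00, 1.13 and 1.96 CPM at day 7. Egr2, Hsp90aa1 and Egr3 each lost their calls without any 1 of 3 to 5 mice (adjusted p between 0.0508 and 0.18). Of 21 p53 targets Cdkn1a and Bax were lower and Phlda3 higher, and Bax and Phlda3 lost their calls in 4 and 2 of the 6 fits without 1 mouse (adjusted p between 0.0531 and 0.0829). Of 17 circadian genes Rora, a nuclear receptor of the clock, was higher, at 18.6, 15.7 and 19.3 CPM at day 21 and 8.79, 13.4 and 7.88 CPM at day 7, a call lost without day 7 mouse 3 (adjusted p = 0.0574).

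The largest fold changes included genes outside these lists. Clu, the chaperone clusterin, had 13.1, 9.66 and 14.6 CPM at day 21, against 0.194, 0.909 and 1.05 CPM at day 7, a log2 fold change of 4.08 ± 1.12 (SE; adjusted p = 0.0228, edgeR). Its fold change was the highest among called genes with a standard symbol, a mean of at least 5 CPM on 1 of the days and no overlap of mice. But its call was lost without day 21 mouse 3 or any 1 of the day 7 mice (adjusted p between 0.055 and 0.0836) and with limma-voom (adjusted p = 0.108). Pianp, which encodes a ligand of the inhibitory receptor PILR-alpha, had 31.7, 39.1 and 24.9 CPM at day 21, against 2.84, 3.68 and 2.93 CPM at day 7 (adjusted p = 4.65e-07). Sel1l3 had 10.4, 9.73 and 9.57 CPM at day 21 and 0.549, 0.687 and 0.912 CPM at day 7. Sdc1, the proteoglycan syndecan-1, had 10.4, 12.5 and 9.22 CPM at day 21 and 0.872, 1.60 and 1.22 CPM at day 7. Pianp, Sel1l3 and Sdc1 were near 0 in naive WT mice, where they averaged 0.395 ± 0.244, 0 and 0.0227 ± 0.0203 CPM. Itgad, the CD11d integrin chain, had 6.84, 8.55 and 2.42 CPM at day 21 and 0.905, 1.20 and 0.857 CPM at day 7, below its naive mean of 25.8 ± 11.6 CPM. Its call was lost with limma-voom (adjusted p = 0.196). Cited4, a transcriptional coactivator, was 5.24-fold higher. Cd38, an enzyme that consumes NAD, had 11.9, 16.2 and 17.0 CPM at day 21 and 2.55, 3.15 and 1.38 CPM at day 7, with a call that was lost without any 1 of the 6 mice (adjusted p between 0.0727 and 0.147). At the other end, Spon1, the matrix protein spondin 1, had 0.132, 0.104 and 0.173 CPM at day 21, against 1.39, 7.25 and 6.97 CPM at day 7, and lost its call with limma-voom (adjusted p = 0.0527). Plbd1, a lysosomal lipase-like protein of myeloid cells, had 11.7, 6.58 and 9.40 CPM at day 21 and 88.9, 79.7 and 95.7 CPM at day 7. Ltb4r1, the leukotriene B4 receptor, was 10.9-fold lower, Mboat1, a lipid acyltransferase, 11.0-fold lower, and Tiam1, an activator of RAC, 7.44-fold lower. These 5 were at or below 0.258 CPM in naive mice on average, and Spon1 was low in day 7 mouse 1 as well.

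The time course sets both days beside the naive mice and day 14. In 86.9% of the genes called higher and 87.4% of those called lower the day 14 mean lay between the day 21 and day 7 means, against 50.2% of all genes tested, a share that also reflects the wider gap in called genes. The naive mean lay below both days in 27.1% of the higher genes and 31.1% of the lower genes, between the days in 42.7 and 54.7%, and above both in 30.3 and 14.2%. Over all genes tested it lay below both in 39.6%, between in 22.7% and above both in 37.8%. All 37 interferon genes and all 15 interstitial macrophage genes had naive means below both days. Ccr2 averaged 4.61 ± 0.391 CPM in naive WT mice, 311 ± 11.7 at day 7, 112 ± 35.6 at day 14 and 64.9 ± 18.1 at day 21 (SD, n = 3 each), so the day 21 level was well under that of day 7 and still above that of naive mice. Spp1 averaged 383 ± 55.3, 3434 ± 502, 13074 ± 1028 and 16438 ± 1304 CPM in the same order. Siglecf averaged 434.3 ± 40.9, 89.4 ± 21.0, 106 ± 43.0 and 102 ± 17.2 CPM in that order, and the day 21 mean stayed near that of day 7. Of 31 resident alveolar macrophage genes 20 had naive means above both days, against 37.8% of all genes tested.

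**Figure D5:**
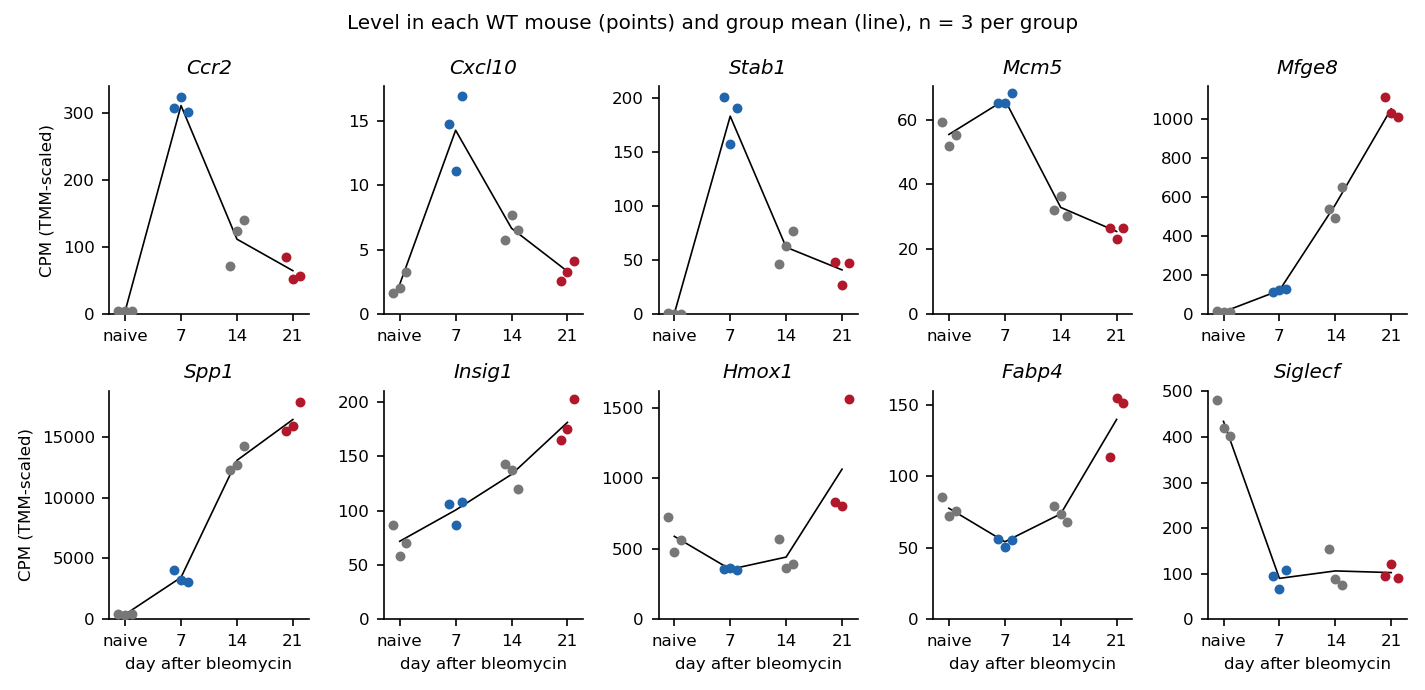
Levels in CPM on the y axis of 10 genes in each WT mouse (points) and the group means (line), for naive mice and days 7, 14 and 21 after bleomycin (n = 3 per group). Day 7 points are blue and day 21 points red. Ccr2, Cxcl10 and Stab1 peak at day 7, Mfge8, Spp1 and Insig1 are highest at day 21, and Siglecf stays near 102 CPM after a naive mean of 434.3.

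Among markers of other cell types, those of lymphocytes were mostly low. At most 3 genes of any type were called, and the share called over all genes tested was 11.6%. T cell markers summed to 56.7 to 73.9 CPM at day 21 and 66.1 to 89.4 CPM at day 7 over 20 tested genes, with Il7r the highest. Of these 0 were called by edgeR, DESeq2 or limma-voom, and 1 had an unadjusted p under 0.05. Of 12 NK and cytotoxic genes 0 were called by any of these tools and 0 had an unadjusted p under 0.05. All 16 genes of the NK and cytotoxic list, tested or not, summed to 6.84 to 11.2 CPM at day 21 and 12.9 to 17.2 CPM at day 7. Of 8 tested B and plasma cell genes 3 were higher, Cd22, Cd79a and Fcmr. Cd22 had 214, 220.2 and 208 CPM at day 21 and 97.2, 136 and 129 CPM at day 7 and was 208 ± 21.5 CPM in naive mice. Cd79a had 1.88, 0.727 and 0.967 CPM at day 21 and 0, 0.0222 and 0.0276 CPM at day 7, and Fcmr 0.331, 0.693 and 0.345 CPM at day 21 and no counts at day 7. Pax5, the transcription factor of B cells, was at most 0.104 CPM at day 21 and 0 at day 7. Of 17 dendritic cell genes Cd209a and Bst2 were lower, and the list summed to 532 to 605 CPM at day 21 and 576 to 603 CPM at day 7. Of 11 tested neutrophil genes Cxcr2 was higher, with Camp, Ngp and Elane at 0. The neutrophil list summed to 592 to 636 CPM at day 21, above its 404 to 482.2 CPM at day 7, with most of the sum from Mcemp1 and Mmp8. S100a8, a calcium-binding protein abundant in neutrophils, had 54.8, 51.7 and 56.4 CPM at day 21 and 31.6, 13.4 and 19.9 CPM at day 7 without passing the test. Cd79a and Cd209a lost their calls with limma-voom (adjusted p = 0.0706 and 0.0525). Apart from that of Cd22, each of the calls in B cell, dendritic and neutrophil genes was lost in at least 3 of the 6 fits that left out 1 mouse (adjusted p between 0.0515 and 0.121). The sum of 24 epithelial genes, 23 of them tested, ran from 550.3 to 682 CPM at day 21 and from 620.2 to 792 CPM at day 7. Among them Hopx was lower, with 8.86, 9.91 and 10.7 CPM at day 21 and 44.0, 40.3 and 36.1 CPM at day 7, and Napsa, which monocytes also express, was 1.87-fold lower. Sftpc, the surfactant protein of alveolar type II cells, was 10.5, 4.74 and 7.63 CPM at day 21 and 1.32, 0.155 and 85.3 CPM at day 7, highest in day 7 mouse 3. Kdr, an endothelial receptor, had 0.0992, 0.104 and 0.725 CPM at day 21 and 1.45, 2.31 and 7.49 CPM at day 7, a call lost without day 21 mouse 1 or 2 or day 7 mouse 3. Cldn5, Emcn and Lum were at 0 in all 6 mice. The part of other cells in the results was not tested.

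The same change was measured in mice lacking Siglec-F, with 3 KO mice at day 21 and 3 at day 7. KO libraries of the study held at most 25 Siglecf counts. In KO mice 1880 genes, or 14.9% of those tested, were called between the days, 7.16% higher and 7.73% lower. Of the genes called higher in WT mice 58.8% were also called higher in KO mice (45.1% of the KO list), and of those called lower 67.2% (53.5% of the KO list). The difference between the genotypes was called for 0 genes (0% of those tested; edgeR, smallest adjusted p 0.351). At an unadjusted p under 0.05 it was seen in 615 genes, against 632 that make up 5% of the genes tested, and DESeq2 called 6. So no gene below is shown to differ between genotypes. Mfge8 averaged 466.6 ± 241 CPM in KO mice at day 21 and 113 ± 26.5 CPM in KO mice at day 7, a log2 fold change of 2.05 ± 0.32 in KO and 3.11 ± 0.33 in WT mice. Hmox1 had log2 fold changes of 0.40 ± 0.23 in KO and 1.59 ± 0.24 in WT mice, Stab1 of -4.10 ± 0.53 in KO and -2.16 ± 0.49 in WT mice, and Mcm5 of -1.28 ± 0.12 in KO and -1.37 ± 0.12 in WT mice (SE). Of the 24 cholesterol synthesis genes 2 were called higher in KO mice, against 13 in WT mice, with median log2 fold changes of 0.15 in KO and 0.57 in WT mice. Of the 37 type I interferon genes 24 were called lower in KO mice, against 17 in WT mice. Among 116 named genes that were called in WT mice, 16 had an unadjusted p under 0.05 for the difference, and none passed the adjustment. Over all 12634 genes tested the number was 615. The 116 calls rest on the same WT mice that enter the difference, so their count cannot show whether these genes differ by genotype.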

How the data were processed

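RNA of airspace macrophages from 24 mice in 8 groups (WT and KO, naive or 7, 14 or 21 days after bleomycin) was made into poly(A)-selected libraries and sequenced in 150 bp paired ends, per the labels' protocols. The deposited table holds estimated counts per gene that the authors made on mm10; 3.11 to 3.85% of entries were not whole. The submitters' processing notes name bcl2fastq, DESeq2 1.42.0 and limma 3.58.1 without their roles, and no source used here gives the aligner, counter, annotation or strand setting. The labels list 2 sequencing runs a mouse without saying if a column sums them. A further 24 columns belong to other samples and were not used. Library totals ran from 24877049 to 47457085 counts.

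Counts were rounded and filtered with filterByExpr (minimum count 10, minimum total 15) in edgeR 4.0.16, scaled with TMM, and fitted in 1 quasi-likelihood model of all 8 groups with 16 residual degrees of freedom. The contrast was WT day 21 minus WT day 7, a second one was its difference between genotypes, and p-values were adjusted by Benjamini and Hochberg over 12634 genes with a threshold of 0.05. Levels are CPM on TMM-scaled library sizes, so they are not corrected for gene length and are compared within a gene only. Named genes were the 12 highest and 12 lowest called changes among genes with a standard symbol, a mean of at least 5 CPM in 1 group and no overlap, up to 4 called members with the smallest p for each of 37 lists, a panel of known markers, and the 4 smallest p; some genes that these rules name are not reported here. The members and lists were chosen with earlier results of these data known. Replicate numbers gave no pairing: same-numbered mice correlated at 0.00504, -0.0062 and 0.0119 in their deviations from group means. The script was tested on simulated data. Alternatives were DESeq2, limma-voom, RLE scaling, no filter, the compared groups alone, a replicate block, thinned counts, leaving out each mouse and, chosen after seeing the data, 2 treatments of Rn45s.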

Additional observations from a re-analysis of the deposited data

How the results depend on the processing

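Of 116 named genes that were called, 77 kept their call in every alternative and 39 lost it in at least 1, and 0 of them changed sign. The number of called genes ran from 1290 to 1916 over the alternatives that kept all mice, with 1060 of the 1471 genes shared by the model of the compared groups alone. Leaving out 1 mouse gave 876 to 1476 called genes, or 3.44 to 5.38% of the genes tested higher and 3.49 to 6.3% lower. The replicate block gave 1483 called genes, 722 higher and 761 lower, with 1391 shared, although the replicate numbers show no pairing, and under it Ctss and Ifi30 (adjusted p = 0.0519 and 0.0558) and Cd79a (0.0657) lost their calls. Genes with too few counts could not be tested at this depth. Of markers of other cell types, 4 of 17 eosinophil, mast cell and basophil and 7 of 18 endothelial and fibroblast genes were tested. For T cells 20 of 23 and for dendritic cells 17 of 17 were tested.

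The genotype difference was called for 6 genes by DESeq2 for 1 without KO day 21 mouse 3, and for 0 without any 1 other KO or WT mouse of the 2 days. Ribosomal proteins held 11 lower members with DESeq2, 2 in the compared groups alone, 8 with the Rn45s share as a covariate and 0 to 16 without 1 mouse. Higher members of alternative activation were 2 with limma-voom, 2 with the replicate block and 1 to 3 without 1 mouse. The compared groups alone gave 14 higher resident alveolar macrophage genes, 7 fibrosis-associated, 11 matrix and 2 growth factor genes, and 26 lower type I interferon and 2 oxidative phosphorylation genes. There, H2-Ab1, Mmp12 and Pparg passed the test as well.

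Without 1 mouse, lower members ran from 6 to 10 for recruited monocyte, 2 to 5 for interstitial, 4 to 10 for type I interferon, 5 to 8 for interferon gamma, 2 to 14 for oxidative phosphorylation and 1 to 3 for p53 genes. Higher members ran from 2 to 3 for complement, 6 to 14 for cholesterol synthesis, 4 to 7 for efflux, 1 to 3 for fatty acid oxidation, 5 to 8 for lysosome, 2 to 3 for growth factors, 3 to 8 for antioxidant and iron, and 1 to 2 for immediate-early genes. Of the genes not called, 3 changed sign: Arg1 ran from -0.0846 to 0.53, Marco from -0.58 to 0.0731 and Fabp1 from -0.79 to 0.42 on the log2 scale, and Fabp1 was -0.20 with limma-voom. The cause of these changes was not tested.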
